A study of Arabidopsis thaliana with 9 samples.

Results

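Whole Arabidopsis thaliana seedlings treated with 2'-aminoacetophenone (2-AA) were compared with seedlings treated with flg22, over every gene of the deposited count table. The comparison used 6 of the series' 9 libraries, 3 for each treatment, and 20588 of the table's 32833 loci had enough counts to be tested. All seedlings were wild type of the ecotype Col-0, with no mutant or transgene in any group. Per the labels, they were grown for 5 days on solid and 5 days in liquid half-strength MS medium, and received flg22 at 100 nM or 2-AA at 200 uM. The other 3 libraries, mock, are labelled as untreated; they entered no test here, and their levels are given only as values. No source used here gives the length of the treatments, the hour of harvest or the solution that mock plants received. The libraries of a group are described as biological replicates, with no word on whether they came from separate cultures, so each p-value covers only the spread among these libraries, which may be technical.

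The peptide flg22 is a conserved stretch of bacterial flagellin. The receptor kinase FLS2 binds it with the co-receptor BAK1 and sets off cytoplasmic kinases, an oxidative burst and defence transcription, with salicylic acid as a later amplifier. 2-AA is a small volatile aromatic ketone that the bacterium Pseudomonas aeruginosa makes as a signal. Plants meet foreign small molecules with a detoxification programme: oxidoreductases and cytochromes P450 modify them, glutathione transferases (GSTs) and UDP-glucosyltransferases (UGTs) conjugate them, and ABC and MATE transporters carry them across membranes.

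The 6 libraries held 26644996 to 32147062 counts. Levels are given as CPM, counts scaled to library size with TMM factors, and 3 counts, the limit that a count of 0 allows, correspond to 0.0934 to 0.115 CPM. On the first principal component (49.6% of the variance) flg22 libraries lay between -34.97 and -32.58 and 2-AA libraries between 25.06 and 42.7. The second component (18%) set flg22 2 and 2-AA 2, at 23.6 and 30.37, apart from the other 4 libraries, which reached at most 0.8307. The same pair had the largest shares of counts from chloroplast genes, 0.0743% and 0.241%, against 0.0211 to 0.0244% in the other 4. Some counts below are therefore also given without both libraries numbered 2. For the others, silence does not mean that the count held there.

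Between the treatments 3062 genes were called at an adjusted p under 0.05, which is 14.9% of those tested. Shares called that are given for lists below are to be read beside this 14.9%. With 2-AA, 1613 genes (7.83%) were higher and 1449 (7.04%) lower than with flg22. Every adjusted p in the text comes from edgeR's quasi-likelihood test with Benjamini-Hochberg adjustment over all genes tested. Most differences were small: the median absolute log2 fold change of called genes was 0.52, and 1751 were called with a change under 1.5-fold. Changes of at least 2-fold numbered 340 higher and 287 lower, and of at least 4-fold 76 and 103. Without both libraries numbered 2, 990 genes were higher and 787 lower. Leaving out 2-AA 1 alone gave 1093 and 792, and leaving out 2-AA 2 alone 1111 and 957. In bulk RNA of whole seedlings, fewer cells of a type and less RNA per cell cannot be told apart.

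**Figure D1:**
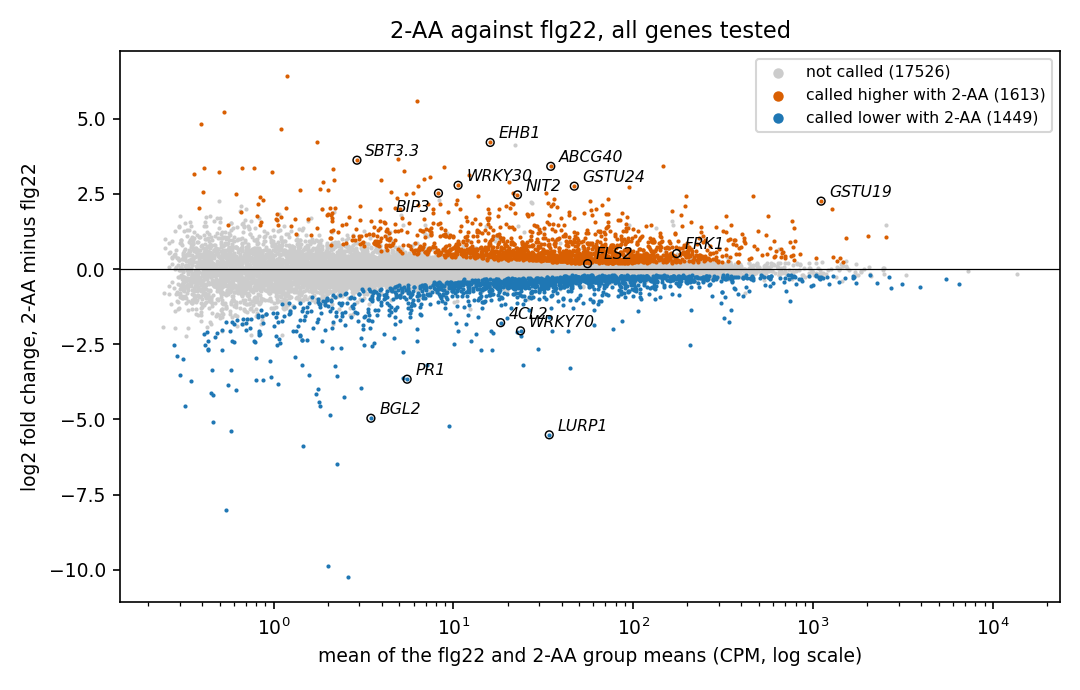
Change of each gene tested against its level. The horizontal axis is the mean of the flg22 and 2-AA group means in CPM on a log scale, and the vertical axis the log2 fold change of 2-AA minus flg22; grey points were not called, orange points (1613) were higher and blue points (1449) lower with 2-AA, and circled genes are named in the text. The lowest blue points are genes with few or 0 counts in the 2-AA libraries, whose fitted change depends on the prior count.

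Mock levels, read as a description, lay below both treatments for 220 of the 340 genes at least 2-fold higher with 2-AA (64.7%), between them for 89 (26.2%) and above both for 31 (9.12%). Of the 287 genes at least 2-fold lower with 2-AA, mock was below both treatments for 103 (35.9%), between them for 108 (37.6%) and above both for 76 (26.5%). The higher genes thus mostly stood above the untreated level in both treatments, while no placement held most of the lower ones.

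The 12 largest rises included an oxidoreductase, a lipid-binding protein, a cytochrome P450, a protease and a chaperone. AT1G60750, annotated as an NAD(P)-linked oxidoreductase (chromosome 1, 22362293 to 22363854, TAIR10.1), read 0.529, 0.0728 and 0.136 CPM with flg22 and 12.01, 12.8 and 11.9 CPM with 2-AA. Its log2 fold change was 5.58 ± 0.36 (SE; adjusted p = 4.86e-06), and the flg22 libraries held 16, 2 and 4 counts of it. A gene with the same product name, AT1G60730, lies close to it, so reads may have been divided between them. EHB1, a calcium-dependent lipid-binding protein, went from 1.72, 1.09 and 2.08 CPM to 29.4, 35.5 and 26.4 CPM (4.21, adjusted p = 6.26e-07). In both genes every 2-AA library stood far above every flg22 library, and mock means were low, 0.457 CPM for AT1G60750 and 2.37 CPM for EHB1. The subtilase SBT3.3, a protease tied to defence priming, went from 0.595, 0.219 and 0.476 CPM to 5.25, 5.29 and 5.61 CPM (3.62, adjusted p = 2.58e-05). AT3G13310, a DnaJ-domain chaperone, rose evenly at a higher level, from 25.1, 26.4 and 23.4 CPM to 258, 276 and 269 CPM (3.42, adjusted p = 2.70e-09). The other 8 of the 12 largest rises were CYP89A6, ABCG40, GSTU22, the cupins AT3G04300 and AT1G50590, the hydrolase AT1G68620, the protein phosphatase AT1G07160 and the cinnamyl alcohol dehydrogenase ELI3-2, with log2 fold changes of 2.95 to 3.64. CYP89A5, a close relative of CYP89A6, was higher as well (1.18), and reads of the pair may be shared.

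By absolute level the largest gains were in PRX71, HR4, EARLI1, GSTU19 and AZI1. HR4, a homologue of the resistance protein RPW8, read 551, 489 and 495 CPM with flg22 and 2066, 2350 and 1691 CPM with 2-AA (1.99, adjusted p = 1.91e-06). The peroxidase PRX71 went from 2013, 1511 and 1391 CPM to 3392, 3795 and 3089 CPM (1.06). The lipid-transfer proteins AZI1 (1.02) and EARLI1 (1.09) have similar sequences and neighbour each other, so their values are not independent. Mock means of PRX71, HR4, EARLI1 and AZI1 were 141, 102, 159 and 211 CPM, below every treated library.

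By number, detoxification genes were the list with the most members higher. By share, ER chaperones had more members called (88.2%). The members of this and the other lists were chosen with earlier results of these data known, so their shares are descriptions. Of 38 tested members of the xenobiotic list, 31 were higher with 2-AA and 0 lower, 22 of them at least 2-fold. The share called was 81.6%, beside 14.9% over all genes tested. The median log2 fold change of the tested members was 1.26, beside -0.000636 over all genes tested. Without both libraries numbered 2, 29 were higher. The table holds 40 members; GSTU2 was near 0 counts and UGT75B1 was listed at 0.

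The transporter ABCG40 (chromosome 1, 5331858 to 5338326), known as an importer of abscisic acid with a role in resistance to toxic compounds, read 6.97, 5.35 and 5.51 CPM with flg22 and 53.1, 67.7 and 70.02 CPM with 2-AA. The difference was 10.7-fold (log2 3.42 ± 0.14, adjusted p = 2.44e-07), and mock stood at 4.29 CPM. The glutathione transferase GSTU24 went from 15.2, 9.29 and 11.8 CPM to 68.6, 78.5 and 98.7 CPM (2.76, adjusted p = 3.90e-06). In neither gene did a library of 1 treatment reach the range of the other, but the mock mean of GSTU24, 61.1 CPM, lay near the 2-AA level. The glucosyltransferase UGT73B4 went from 10.6, 7.72 and 10.3 CPM to 52.8, 50.2 and 63.8 CPM (2.54, adjusted p = 1.44e-06). UGT73B4 lies within the annotated span of UGT73B5 (1.71), so their reads cannot be fully told apart. UGT73B2, of the same group, rose from 71.3, 69.3 and 78.1 CPM to 309, 331 and 303 CPM (2.11, adjusted p = 8.98e-08).

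The reductases OPR1 (1.76) and OPR2 (1.46), which reduce reactive carbonyls and other electrophiles, were higher. OPR1 read 266, 263 and 239 CPM against 828, 925 and 837 CPM, while OPR3, the isoform of jasmonate synthesis, was not called (-0.12, adjusted p = 0.5204). The NAC factors ATAF1 (1.42), NAC032 (1.23) and NAC102 (0.92), regulators tied to this programme, were higher, and the GRAS protein SCL14, which acts upstream of them, was not called (0.17, adjusted p = 0.156). ATAF1 was steady within groups, at 37.8, 44.1 and 36.2 CPM and 105, 106 and 106 CPM. The cytochrome P450 CYP81D11 (1.57), the alkenal reductase AER (1.26) and the aldo-keto reductase AKR4C9 (1.99) were higher too. UGT74E2, a glucosyltransferase of indole-3-butyric acid, read 16.6, 4.12 and 7.59 CPM against 30.9, 30.9 and 41.7 CPM (1.87, adjusted p = 0.00584; 0.116 with robust dispersions), and mock at 42.7 CPM was above the 2-AA mean. The MATE carrier DTX1 was called at 0.39 (adjusted p = 0.0303), but not without 2-AA 1, 2-AA 3, flg22 2 or flg22 3 (adjusted p 0.0505, 0.0713, 0.09499 and 0.0842). Its call was also lost without both libraries numbered 2 (adjusted p = 0.0662), with upper-quartile scaling (0.0514) and with all 9 libraries fitted (0.108).

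The promoters of ABCG40, UGT73B4 and GSTU24 are printed because members of the list often hold TGACG, the core bound by TGA-type bZIP factors, in this window. Each is the 300 bases before the annotated gene start in TAIR10.1, from RefSeq, 5′ to 3′ along the gene, with matches to TGACG on either strand in capitals. The window of UGT73B4 lies inside the annotated span of UGT73B5.
ABCG40 (chr1:5338327-5338626, minus strand): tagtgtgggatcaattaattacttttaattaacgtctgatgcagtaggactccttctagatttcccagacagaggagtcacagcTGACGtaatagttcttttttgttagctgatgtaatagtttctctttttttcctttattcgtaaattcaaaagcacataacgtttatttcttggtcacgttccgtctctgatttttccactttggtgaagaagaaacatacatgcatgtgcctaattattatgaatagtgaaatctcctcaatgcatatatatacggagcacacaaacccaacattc
UGT73B4 (chr2:6761335-6761634, plus strand): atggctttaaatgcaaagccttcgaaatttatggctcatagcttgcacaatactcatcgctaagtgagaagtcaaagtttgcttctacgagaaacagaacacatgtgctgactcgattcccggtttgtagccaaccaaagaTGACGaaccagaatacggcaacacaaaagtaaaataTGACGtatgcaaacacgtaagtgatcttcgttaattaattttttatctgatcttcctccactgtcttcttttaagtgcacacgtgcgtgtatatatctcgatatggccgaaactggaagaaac
GSTU24 (chr1:5869243-5869542, plus strand): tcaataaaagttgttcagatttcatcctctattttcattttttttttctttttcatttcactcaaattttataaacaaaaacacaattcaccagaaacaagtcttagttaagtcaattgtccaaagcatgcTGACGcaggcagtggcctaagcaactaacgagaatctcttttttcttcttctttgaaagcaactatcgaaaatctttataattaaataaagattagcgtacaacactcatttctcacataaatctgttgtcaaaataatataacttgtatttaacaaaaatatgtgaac

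TGACG was present on either strand in 19 of 38 promoters of tested list members (50.0%), in 109 of 339 promoters (32.2%) of genes at least 2-fold higher with 2-AA and in 77 of 284 (27.1%) of those at least 2-fold lower. Over all 27561 protein-coding genes with such a window the share was 21.3%. The W box of WRKY factors, searched on both strands as TTGACC or TTGACT, was in 57.9% of list promoters, 46.3% of the higher genes, 38.0% of the lower genes and 32.2% of all. TGACG and a W box cannot share a TGAC on the same strand, since the base after it differs. The matches are letters in a window and do not show binding.

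The enzyme families behind the list moved in part. Of 38 tested tau and phi GSTs, 14 were higher and 4 lower (47.4% called), with a median log2 fold change of 0.15. The higher count was 14 without both libraries numbered 2, and the lower one 2 without 2-AA 1 and 1 without 2-AA 3. GSTU19, the most abundant of the higher members, read 386, 369 and 396 CPM with flg22, 1612, 1747 and 2148 CPM with 2-AA and 722 CPM in mock. GSTU4 (2.89), GSTU1 (2.33) and GSTU7 (2.15) share similar sequence, and their single values are uncertain. GSTU4 went from 5.25, 3.42 and 5.82 CPM to 34.9, 34.7 and 38.2 CPM. The phi member GSTF14 went the other way, from 78.6, 103 and 103 CPM to 21.95, 24.6 and 32.1 CPM (-1.85, adjusted p = 1.37e-05), with mock at 11.03 CPM. Of 50 tested UGTs 18 were higher and 5 lower (46.0% called). Among the lower ones UGT76D1 read 2.45, 3.61 and 3.3 CPM against 0.6799, 0.537 and 0.561 CPM (-2.38).

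The 166 tested cytochromes P450 split evenly, 23 higher and 23 lower (27.7% called). CYP702A5 was lower with 4.403, 5.06 and 4.95 CPM against 41.9, 47.9 and 42.5 CPM (-3.20, adjusted p = 8.98e-08), and mock lay between the treatments at 25.6 CPM. Of 38 ABCG transporters 7 were higher and 3 lower (26.3% called). ABCG1 (1.79) and ABCG34 (0.87) followed ABCG40. DTX35, a MATE carrier of the vacuole membrane, rose from 160, 149.9 and 166 CPM to 415, 434 and 415 CPM (1.41, adjusted p = 5.58e-07). NAC factors had 15 higher and 5 lower of 77 (26.0% called), and 3 lower without 2-AA 1, 2-AA 3 or flg22 2. Sulfate assimilation and glutathione supply had 1 higher and 2 lower of 17, near the share over all genes, the higher member being the serine acetyltransferase SERAT2;1 (1.42), from 67.5, 68.7 and 54.95 CPM to 169, 180.1 and 163 CPM. The lower count of this list was 4 without flg22 2 and 1 without 2-AA 1, 2-AA 2 or flg22 3, and the higher one 2 without flg22 1 or flg22 3. The glutathione synthesis genes GSH1 and GSH2 were not called (adjusted p = 0.318 and 0.948).

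**Figure D2:**
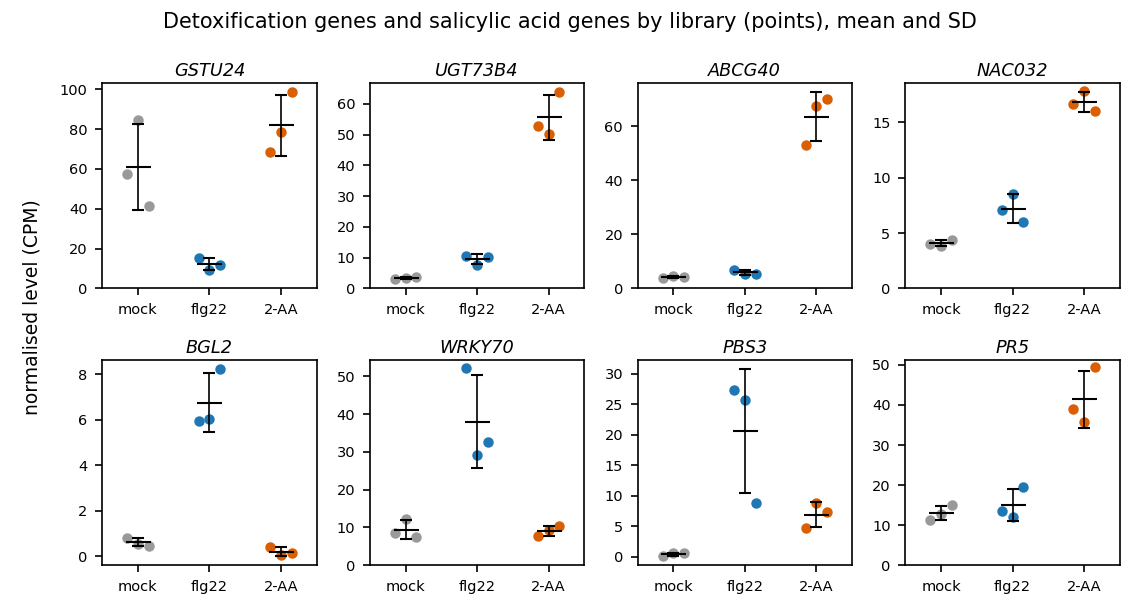
Levels of 4 detoxification genes and 4 genes of the salicylic acid list in each library, on linear axes in CPM, with points for libraries and bars for the mean and SD of 3 libraries. The 2-AA libraries of ABCG40 lie between 53.1 and 70.02 CPM, above all flg22 libraries, those of BGL2 lie below all flg22 libraries, and PR5 is highest with 2-AA.

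In the salicylic acid list most called genes were lower with 2-AA. Of 25 tested genes of salicylic and pipecolic acid synthesis, control and output, 10 were lower, each at least 2-fold, and 2 were higher. The remaining 13 were not called, and the median log2 fold change was -0.94. The share called was 48.0%, beside 14.9% over all genes tested. Without both libraries numbered 2, 10 were lower and 1 higher, and the higher count was also 1 without 2-AA 1, 2-AA 3, flg22 2 or flg22 3. The plot of detoxification and salicylic acid genes shows BGL2, WRKY70 and PBS3 beside PR5, which went the other way. Of the list's 27 members 1 was listed at 0 and 1 was below the filter.

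BGL2, the glucanase also called PR2 (chromosome 3, 21188397 to 21189967), read 5.95, 6.05 and 8.23 CPM with flg22 and 0.421, 0.0767 and 0.125 CPM with 2-AA. Its log2 fold change was -4.96 ± 0.40 (adjusted p = 2.14e-05), and mock stood at 0.613 CPM. PR1, the standard marker of salicylic acid responses, read 13.9, 5.39 and 11.6 CPM against 0.259, 0.0384 and 2.03 CPM (-3.66 ± 0.69, adjusted p = 0.00476; 0.103 with robust dispersions). In both genes each flg22 library was above each 2-AA library, and for BGL2 each 2-AA library was also below each mock library. Mock stood at 0.709 CPM for PR1. LURP1, a defence gene induced by oomycete infection and salicylic acid, fell from 84.4, 19.6 and 96.5 CPM to 1.101, 0.345 and 2.77 CPM (-5.51, adjusted p = 0.000275; 0.0504 with limma-voom). flg22 2 was the lowest flg22 library for LURP1 and for PR1.

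Several regulators were lower too. WRKY70, a factor induced by salicylic acid, read 52.2, 29.3 and 32.7 CPM with flg22 and 7.71, 9.44 and 10.3 CPM with 2-AA (-2.06, adjusted p = 9.11e-05), with mock at 9.43 CPM. Its relative WRKY54 read 13.1, 8.38 and 8.78 CPM against 2.396, 2.88 and 2.31 CPM. WRKY38 (-4.17), the NPR1 interactor NIMIN2 (-1.74) and SARD1, an activator of salicylic acid synthesis (-1.83), were lower, as were DMR6 (-1.28) and DLO1 (-4.55), which hydroxylate salicylic acid. SARD1 read 26.2, 14.6 and 13.9 CPM against 4.89, 5.98 and 4.61 CPM. PBS3, which conjugates isochorismate with glutamate, read 27.3, 25.6 and 8.85 CPM against 4.63, 8.75 and 7.35 CPM (-1.58, adjusted p = 0.0144). PBS3 was not called without 2-AA 1, flg22 1 or flg22 2 (adjusted p 0.0686, 0.05001 and 0.0525). Its call was also lost with robust dispersions (adjusted p = 0.151), with limma-voom (0.0531) and without both libraries numbered 2 (0.05865).

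Other regulators, the synthase and the receptors were not called. ICS1, the isochorismate synthase of the main route, read 43.3, 34.01 and 19.1 CPM and 29.95, 35.5 and 21.8 CPM, with overlapping groups (-0.15 ± 0.25, adjusted p = 0.761). CBP60G, the relative of SARD1, was at 0.31 (adjusted p = 0.305), and the receptors NPR1, NPR3 and NPR4 were at 0.22, -0.05 and 0.21; NPR1 alone of these was called without flg22 1 (adjusted p = 0.0397). PR5, a thaumatin-like protein, was higher instead: 13.6, 12.02 and 19.5 CPM with flg22 and 39.01, 35.7 and 49.4 CPM with 2-AA (1.46, adjusted p = 0.000294). The senescence gene SAG13 was called higher (1.31, adjusted p = 0.04395) with 5.42, 2.66 and 4.49 CPM against 7.19, 6.099 and 17.8 CPM. It was not called without 2-AA 3 (0.66, adjusted p = 0.147), nor without 2-AA 1 or any flg22 library (adjusted p 0.0505, 0.0515, 0.132 and 0.0837). Its call was also lost without both libraries numbered 2 (adjusted p = 0.0534), with upper-quartile scaling (0.05102), DESeq2 (0.1), limma-voom (0.0864) and robust dispersions (0.198).

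The promoters of BGL2 and WRKY70 are printed in the same way, since these genes of the opposite direction also hold TGACG.
BGL2 (chr3:21189968-21190267, minus strand): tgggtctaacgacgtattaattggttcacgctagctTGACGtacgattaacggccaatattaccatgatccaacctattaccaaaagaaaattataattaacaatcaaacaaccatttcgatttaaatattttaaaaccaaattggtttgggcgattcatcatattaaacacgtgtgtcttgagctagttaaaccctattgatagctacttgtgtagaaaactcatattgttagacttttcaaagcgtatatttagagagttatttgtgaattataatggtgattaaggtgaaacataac
WRKY70 (chr3:20910624-20910923, minus strand): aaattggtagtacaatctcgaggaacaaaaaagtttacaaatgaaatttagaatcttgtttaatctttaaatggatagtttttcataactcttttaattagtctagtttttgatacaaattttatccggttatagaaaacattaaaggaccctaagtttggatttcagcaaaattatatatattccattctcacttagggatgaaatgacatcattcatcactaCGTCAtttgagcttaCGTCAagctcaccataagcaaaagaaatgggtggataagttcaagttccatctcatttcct

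TGACG was in 7 of 25 promoters of tested members of the salicylic acid list and a W box in 4 of 25, so the element was found in genes of either direction.

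Other large falls lay outside that list. AT4G19750, a glycosyl hydrolase with a chitinase domain that neighbours the similar AT4G19760, read 10.01, 2.51 and 2.99 CPM with flg22 and had 0 counts in every 2-AA and mock library. Taking 3 counts over the group as the limit, it was at least 154-fold lower with 2-AA, and at least 81.8-fold without flg22 1. PCR1, a small membrane protein named for cadmium resistance, read 24.98, 11.7 and 18.5 CPM against 0.518, 0.959 and 0.0623 CPM (-5.22, adjusted p = 4.55e-05). PCC1, named for control by pathogens and the clock, and AT3G22235, close to it on chromosome 3, had log2 fold changes of -3.63 and -3.31, and each had its lowest flg22 level in flg22 2. In these 4 genes flg22 was high while mock was low, at 0.1296 CPM for PCR1 and 0.0859 CPM for PCC1. The remaining ones of the 12 largest falls, ranked under the same limits as the rises, were AT2G30660, AT1G19960, AT1G29020 and AT5G42830. Their log2 fold changes were -3.94 to -2.69, and genes at lower levels were left out of the ranking.

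Some receptors of pattern recognition were higher with 2-AA, while FLS2 was not called. Of 21 tested cell-surface receptors and their co-receptors, 5 were higher and 1 was lower, with a median log2 fold change of 0.12; 28.6% were called, beside 14.9% of all genes tested. FLS2 read 53.9, 53.2 and 49.7 CPM with flg22 and 61.4, 63.95 and 52.4 CPM with 2-AA, and 16.7 CPM in mock. The treatments overlapped, and FLS2 was not called (0.18 ± 0.08, adjusted p = 0.171), although it was without 2-AA 3 (0.26, adjusted p = 0.0349). FRK1, a receptor-like kinase used as a marker of flg22 responses, read 204, 141 and 85.3 CPM and 202, 248 and 165 CPM, against 2.499 CPM in mock. Its groups overlapped too (0.51 ± 0.25, adjusted p = 0.214), and it was called without flg22 1 (0.86, adjusted p = 0.02504). EFR, the receptor of bacterial elongation factor Tu, was higher, from 23.4, 20.7 and 21.5 CPM to 35.1, 33.7 and 35.1 CPM (0.66, adjusted p = 0.000368). LYK5 (1.13), a chitin receptor, RLK7 (1.02), the receptor of an endogenous peptide, and IOS1 (0.96), a kinase that associates with FLS2, were higher as well. BAK1 was called at 0.28 (adjusted p = 0.0196), but not without 2-AA 1, 2-AA 2, flg22 2 or flg22 3 (adjusted p 0.08802, 0.0764, 0.0534 and 0.0601). The call of BAK1 was also lost without both libraries numbered 2 (adjusted p = 0.117). SERK2, its relative, was the lower member (-0.33). SERK2 was not called without 2-AA 1 or flg22 1 (adjusted p 0.0523 and 0.0563), nor without both libraries numbered 2 (0.0674).

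Of 18 cytoplasmic and MAP kinases 3 were higher and 0 lower, a share called of 16.7%, close to the 14.9% over all genes. Among the 3, BIK1 (0.30) was not called with any single library left out except flg22 1. Its call was also lost without both libraries numbered 2 (adjusted p = 0.134). MKK9, which acts in stress signalling, read 14.5, 17.59 and 13.1 CPM against 26.3, 27.8 and 26.9 CPM (0.84, adjusted p = 0.000644), while MPK3 and MPK6, the main kinases after flg22, were not called (0.16 and 0.13). Of 13 intracellular immune receptors and helpers 2 were higher (15.4%, close to that share too), RIN4 (0.55), a membrane protein that such receptors guard, and RPM1 (0.39). The call of RPM1 was lost with any single library left out except 2-AA 3 (adjusted p 0.105, 0.121, 0.06601, 0.0684 and 0.1103). It was also lost without both libraries numbered 2 (adjusted p = 0.145). RPS2 was listed at 0.

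**Figure D3:**
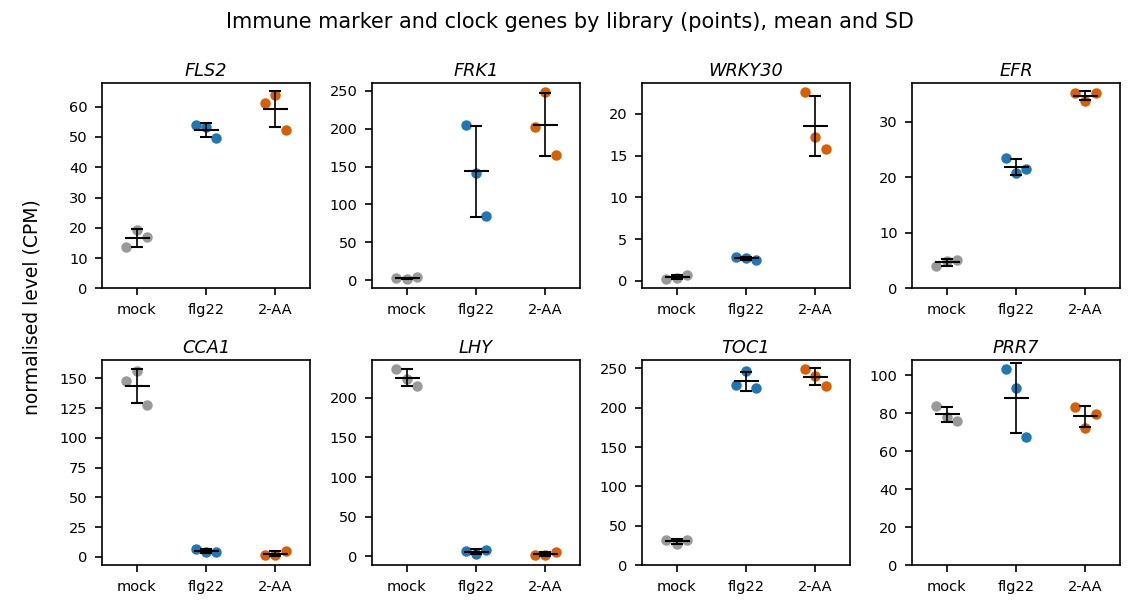
Levels of 4 immune genes and 4 clock genes in each library, on linear axes in CPM, with points for libraries and bars for the mean and SD of 3 libraries. FLS2, FRK1, CCA1, LHY, TOC1 and PRR7 overlap between flg22 and 2-AA, while every 2-AA library of WRKY30 and EFR lies above every flg22 library.

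Early immune markers were mostly higher or not called: 14 of 28 were higher with 2-AA and 3 lower (60.7% called). Their median log2 fold change was 0.45. Without both libraries numbered 2, 12 were higher and 3 lower, and 5 were lower without flg22 3. ZAT12, a zinc-finger factor of oxidative stress, went from 6.94, 7.17 and 4.73 CPM to 23.8, 29.3 and 21.96 CPM (1.99, adjusted p = 2.48e-05). ZAT10 (1.00), the ubiquitin ligase PUB22 (0.95), which dampens immunity, and the NADPH oxidases RBOHF (0.61) and RBOHD (0.39), which make the oxidative burst, were higher. RBOHD was not called without both libraries numbered 2 (adjusted p = 0.0547), and it was lowest with flg22, since mock stood at 86.8 CPM and the treatments at 60.1 and 78.9 CPM. CYP81F2, which modifies indole glucosinolates, went from 22.8, 21.5 and 13.4 CPM to 36.2, 43.1 and 36.9 CPM (1.01). The lower markers were PROPEP2 (-3.04) and PROPEP3, precursors of danger peptides, and MLO6. PROPEP3 read 1.52, 1.42 and 1.09 CPM against 0.259, 0.384 and 0.2803 CPM (-2.12, adjusted p = 0.00478). MLO12 was higher (1.12; adjusted p = 0.0894 with robust dispersions) while its relative MLO6 was lower (-0.99). NHL10 and PHI-1 were not called (adjusted p = 0.228 and 0.0889), though PHI-1 was without flg22 3 (adjusted p = 0.00666), with the replicate number as a block (-0.61, adjusted p = 0.0434) and with DESeq2 (adjusted p = 0.034).

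WRKY factors differed from member to member, as WRKY30 in the plot of immune and clock genes and WRKY70 in that of salicylic acid genes show. Of 62 tested, 18 were higher and 8 lower (41.9% called). Without both libraries numbered 2 the counts were 13 and 8. WRKY30 went from 2.84, 2.695 and 2.52 CPM to 22.6, 17.2 and 15.8 CPM (2.79, adjusted p = 2.39e-06), with mock at 0.4599 CPM. WRKY49 (1.91), WRKY22 (1.79), which acts downstream of MAP kinases, and WRKY6 (1.17) were higher. WRKY33, the regulator of camalexin synthesis, was called at 0.49 (adjusted p = 0.00575), with an adjusted p of 0.0569 when all 9 libraries were fitted. WRKY29, a factor of flg22 signalling, read 29.2, 27.2 and 17.5 CPM against 25.6, 32.7 and 20.7 CPM (0.09, adjusted p = 0.807). The lower members were WRKY18, WRKY38, WRKY51, WRKY54, WRKY59, WRKY60, WRKY62 and WRKY70. WRKY51 read 7.44, 5.17 and 3.74 CPM against 1.88, 1.496 and 1.53 CPM, and WRKY18, at -0.49, was not called without 2-AA 1 (adjusted p = 0.0545).

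Of 38 cysteine-rich receptor-like kinases 4 were higher and 7 lower (28.9% called), and 7 were higher without flg22 1. CRK3 went from 50.5, 43.6 and 35.1 CPM to 151, 147 and 127 CPM (1.72) and CRK4 from 3.998, 3.57 and 4.36 CPM to 0.453, 0.345 and 0.467 CPM (-3.21). CRK3 and CRK11 (1.23) were thus higher, and CRK4 and CRK6 (-2.63) lower. Of 13 wall-associated kinases (61.5% called) 4 were higher, all of the WAKL type, and 4 lower, WAK1, WAK2, WAK4 and WAK5. WAK2 (-0.52) was not called without 2-AA 1, 2-AA 3, flg22 1 or flg22 3 (adjusted p 0.0828, 0.0722, 0.0871 and 0.0542). WAK1 was not called with robust dispersions (adjusted p = 0.0981). WAKL4 read 9.58, 8.05 and 4.798 CPM against 39.3, 38.4 and 25.7 CPM, and WAK4 4.53, 6.41 and 4.36 CPM against 0.777, 0.691 and 1.59 CPM (-2.30). Both families sit in clusters of similar genes, so single values are uncertain, and the higher wall-associated kinases numbered 1 without both libraries numbered 2 and 2 without 2-AA 1 or 2-AA 2 alone.

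Chaperones of the endoplasmic reticulum (ER) were higher with 2-AA. Of 17 tested members of the list, 14 were higher and 1 was lower (88.2% called), with a median log2 fold change of 0.73. Without both libraries numbered 2, 13 were higher. BIP3, the inducible form of the lumenal HSP70 chaperone, read 2.64, 2.19 and 2.48 CPM with flg22, 15.7, 16.4 and 10.1 CPM with 2-AA and 2.35 CPM in mock (2.52 ± 0.20, adjusted p = 1.75e-05). BIP1 and BIP2, constitutive forms nearly identical to each other, were higher by 0.76 and 0.87, at far higher levels: BIP1 read 372, 321 and 350.2 CPM and 575, 633 and 558 CPM. The co-chaperones ERDJ3A (1.40) and ERDJ3B (0.95), the calnexin CNX1 (0.80), and TIN1 (1.71), named for induction by tunicamycin, were higher. BZIP60, a transcription factor of the unfolded protein response, read 37.04, 34.9 and 29.7 CPM and then 65.8, 65.8 and 59.6 CPM (0.91), with mock at 30.97 CPM. CRT3, a calreticulin needed to fold EFR, was the lower member, from 62.4, 64.3 and 61.6 CPM to 48.4, 47.4 and 45.97 CPM (-0.41, adjusted p = 0.000831).

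The BIP3 promoter is printed because it holds the ER stress element. Capitals mark ERSE, which is CCAAT, any 10 bases and CACG, or ERSE-II, which is ATTGG, any base and CCACG, on either strand.
BIP3 (chr1:2931851-2932150, minus strand): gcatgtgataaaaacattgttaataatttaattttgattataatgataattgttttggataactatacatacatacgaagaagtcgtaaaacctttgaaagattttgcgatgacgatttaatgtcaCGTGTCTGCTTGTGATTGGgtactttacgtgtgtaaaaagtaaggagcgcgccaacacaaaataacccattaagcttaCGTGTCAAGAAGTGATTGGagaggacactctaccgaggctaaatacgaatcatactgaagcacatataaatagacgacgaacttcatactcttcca

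Either element was in 4 of 17 promoters of tested list members, those of BIP3, CRT1, PDIL1-1 and HSP90.7, and in 221 of 27561 promoters of this length (0.802%). BIP1, BIP2 and BZIP60 had no match in this window.

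Of 15 heat shock genes 8 were higher and 0 lower (53.3% called). The list's summed level was 211 to 221 CPM with flg22, 366 to 450.4 CPM with 2-AA and 674 to 708 CPM in mock. HSP70 (AT3G12580) read 19.4, 13.04 and 21.5 CPM with flg22 and 37.9, 42.6 and 26.3 CPM with 2-AA (0.98, adjusted p = 0.00732; 0.0525 with robust dispersions), and its mock mean was 291 CPM. HSP90.1 (1.43) had the same order, with mock at 131 CPM. DREB2A, a regulator of drought and heat genes, was instead lowest in mock (1.696 CPM), and went from 18.6, 19.7 and 17.7 CPM to 58.2, 64.8 and 60.2 CPM (1.71, adjusted p = 4.50e-07). Genes of mitochondrial stress signalling had 4 higher and 0 lower of 9 (44.4% called). These were the factors ANAC053 (1.29) and ANAC013 (0.84), the alternative oxidase AOX1A (0.77) and the dehydrogenase NDB2 (0.68). AOX1A read 45.5, 36.1 and 34.7 CPM and then 63.97, 71.1 and 63.4 CPM. Enzymes of reactive oxygen had 7 higher and 2 lower of 20 (45.0% called), and 1 lower without any 1 of the 2-AA libraries. DHAR2, which regenerates ascorbate, went from 43.5, 33.3 and 39.03 CPM to 92.4, 95.5 and 89.7 CPM (1.26), glutathione peroxidase GPX6 was higher (0.92), and the superoxide dismutase FSD1 was lower (-0.52).

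**Figure D4:**
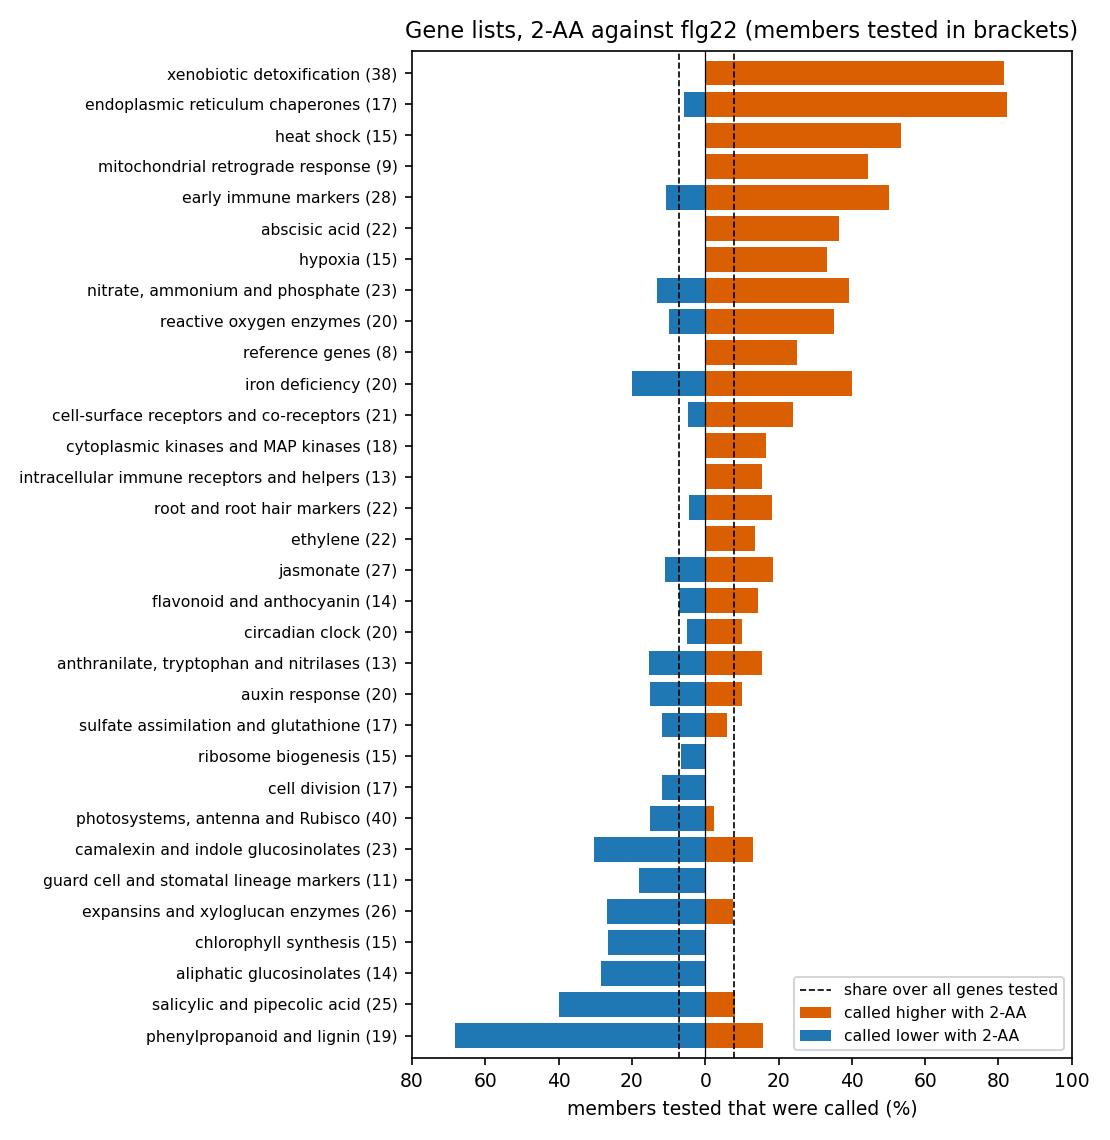
Share of the tested members of each gene list that were called, in percent, with members higher with 2-AA to the right in orange and members lower to the left in blue. Dashed lines mark the shares over all genes tested, 7.83% and 7.04%; detoxification and ER chaperones reach furthest to the right, and phenylpropanoids and salicylic acid furthest to the left.

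Phenylpropanoid genes were lower with 2-AA. This pathway turns phenylalanine into coumaroyl-CoA and from there into lignin monomers and flavonoids. Of 19 tested members 13 were lower and 3 higher (84.2% called), with a median log2 fold change of -0.66. Without both libraries numbered 2, 13 were lower. At the entry, PAL2 read 128, 110 and 116 CPM against 61.96, 58.2 and 63.4 CPM (-0.95, adjusted p = 1.34e-05), and C4H 496, 418 and 354 CPM against 195, 199.7 and 182 CPM (-1.14). The coumarate ligase 4CL1 fell from 151, 129.7 and 118 CPM to 40.5, 42.3 and 38.3 CPM (-1.72 ± 0.09, adjusted p = 1.44e-06), and mock was above both treatments at 292 CPM. 4CL2 fell from 32.98, 25.7 and 26.4 CPM to 8.32, 8.32 and 8.07 CPM (-1.78), with a mock mean of 33.7 CPM. In each of these genes every 2-AA library lay below every flg22 library. Of the later steps to monolignols, HCT (-0.66), CCOAOMT1 (-0.89), COMT1 (-0.83) and CAD4 (-0.84) were lower, and CAD5 was not called (0.07, adjusted p = 0.8003). The higher members, the laccases LAC4 (0.59) and LAC17 (0.55) and the peroxidase PRX72 (0.78), belong to the last step, where monolignols are oxidised in the wall. LAC17 was not called with any single library left out (adjusted p 0.0593, 0.136, 0.0512, 0.0553, 0.0895 and 0.0687). Its call was also lost without both libraries numbered 2 (adjusted p = 0.236). Flavonoid genes, by count, had 2 higher and 1 lower of 14 (21.4% called). The higher count was 0 without any 1 of the 2-AA libraries and 1 without flg22 1 or flg22 3. The lower count was 2 without flg22 1 or flg22 2. CHS, the entry enzyme of that branch, was not called (-0.03).

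**Figure D5:**
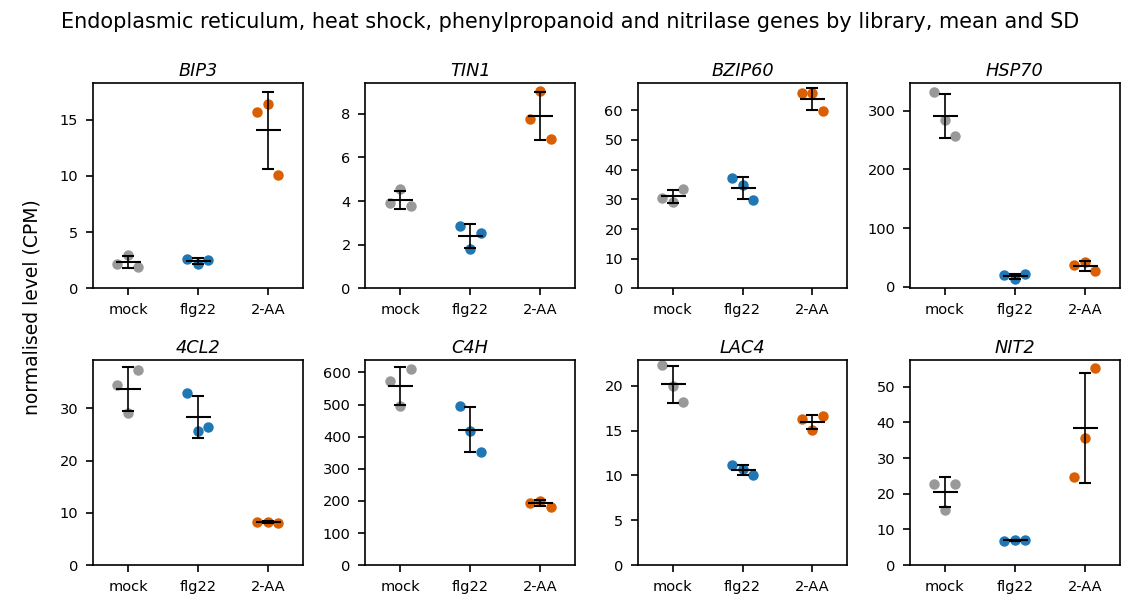
Levels of 4 chaperone, stress and heat shock genes, 3 phenylpropanoid genes and the nitrilase NIT2 in each library, on linear axes in CPM, with points for libraries and bars for the mean and SD of 3 libraries. The 2-AA libraries lie above the flg22 libraries for BIP3, TIN1, BZIP60, HSP70, LAC4 and NIT2 and below them for 4CL2 and C4H, and HSP70 is highest in mock.

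The promoter of 4CL2 is printed because AC elements, which MYB factors of lignin synthesis bind, were frequent in this list. Capitals mark matches to the AC-I, AC-II or AC-III element on either strand, where AC-I is ACCTACC, the AC-II element is ACCAACC and the AC-III element is ACCTAAC.
4CL2 (chr3:7457405-7457704, minus strand): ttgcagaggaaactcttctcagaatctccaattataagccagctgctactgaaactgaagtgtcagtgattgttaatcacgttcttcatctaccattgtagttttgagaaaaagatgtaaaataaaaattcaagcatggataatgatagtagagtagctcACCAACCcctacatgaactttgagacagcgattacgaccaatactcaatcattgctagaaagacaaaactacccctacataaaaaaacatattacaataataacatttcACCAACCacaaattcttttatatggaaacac

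An AC element was in 7 of 19 promoters of tested members (36.8%), 4CL2, 4CL3, HCT, CCOAOMT1, CCR1, CAD5 and LAC17, and in 7.18% of all 27561 promoters of this length. The members with a match include lower genes, the uncalled CAD5 and LAC17, whose call as higher was lost with any single library left out.

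Genes of tryptophan metabolism were mixed, while those of aliphatic glucosinolates, which derive from methionine, leaned lower with 2-AA. In the list of camalexin and indole glucosinolates 3 of 23 were higher and 7 lower (43.5% called). Without both libraries numbered 2 these were 3 and 4. CYP71A12, an enzyme of indole defence compounds, went from 42.7, 23.8 and 23.3 CPM to 9.45, 10.5 and 9.22 CPM (-1.63, adjusted p = 0.000518), with mock at 0.904 CPM. PAD3, which makes camalexin, was not called (0.20, adjusted p = 0.709), and the myrosinase PEN2 (0.40) and the transporter PEN3 (0.38) were higher. Aliphatic glucosinolate genes had 4 lower and 0 higher of 14 (28.6% called). The log2 fold changes of all 14 lay below 0, from -1.32 to -0.215, with a median of -0.48. The lower count was 1 without both libraries numbered 2 or without 2-AA 2 alone. It was 2 without 2-AA 1 or flg22 3, and 10 without flg22 1. Among tryptophan genes and nitrilases 2 were higher and 2 lower of 13 (30.8% called). There was 1 lower without 2-AA 1, 2-AA 3 or any flg22 library. NIT2, which hydrolyses nitriles, read 6.91, 6.92 and 7.04 CPM with flg22 and 24.6, 35.6 and 55.2 CPM with 2-AA (2.47 ± 0.24, adjusted p = 8.26e-05), with mock at 20.4 CPM. The 2-AA libraries of NIT2 spread widely but all lay above flg22. TRP1, of tryptophan synthesis, read 129, 126 and 123 CPM against 75.3, 82.9 and 73.01 CPM (-0.71).

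Among iron genes 8 of 20 were higher and 4 lower (60.0% called). The higher count was 6 without both libraries numbered 2 and 5 without 2-AA 3 or flg22 2 alone. BHLH39, a regulator of iron uptake, read 0.198, 0.219 and 0.102 CPM with flg22 and 2.95, 2.69 and 4.33 CPM with 2-AA (4.24, adjusted p = 5.38e-05), with mock at 5.04 CPM. The iron transporter IRT1 read 1.42, 2.59 and 1.26 CPM and 5.37, 2.53 and 22.5 CPM, and 60.9 CPM in mock. Its groups overlapped. IRT1 was called (2.54, adjusted p = 0.0277), but not without 2-AA 3 (1.18, adjusted p = 0.0832) nor without any flg22 library (adjusted p 0.0858, 0.0501 and 0.08298). Its call was also lost with robust dispersions (adjusted p = 0.217) and with limma-voom (0.153). BTS (0.65) and OPT3 (0.55), which act in iron sensing and transport, were higher, and the ferritins FER1 (-0.62), FER3 (-0.38) and FER4 (-0.60), which store iron, were lower. F6'H1, which makes iron-mobilising coumarins from a phenylpropanoid precursor, fell from 26.5, 24.3 and 30.4 CPM to 5.99, 5.56 and 6.85 CPM (-2.14, adjusted p = 2.39e-06).

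Of 23 nitrogen and phosphate genes 9 were higher and 3 lower (52.2% called). The nitrate transporter NRT2.5 went from 9.48, 8.99 and 5.07 CPM to 36.8, 49.5 and 19.4 CPM (2.16; adjusted p = 0.0502 with robust dispersions), and the phosphatase PS2 from 6.31, 4.04 and 8.85 CPM to 52.6, 38.4 and 19.1 CPM (2.52, adjusted p = 0.000776). In both genes 2-AA 3 was the lowest 2-AA library. AMT2, an ammonium transporter, was higher (0.89) and ASN1, asparagine synthetase, lower (-1.35; adjusted p = 0.0555 with robust dispersions).

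In the lists of abscisic acid and ethylene no member was lower. Abscisic acid genes had 8 higher and 0 lower of 22 (36.4% called), and 7 higher without both libraries numbered 2. RD26, a NAC factor of drought responses, read 8.79, 12.3 and 7.38 CPM and then 23.4, 23.7 and 23.6 CPM (1.31), and ABF3 (0.81), RD29A (0.95) and CYP707A1 (1.17), which breaks the hormone down, were higher. NCED3, the limiting step of its synthesis, was not called (1.64, adjusted p = 0.112). Ethylene genes had 3 higher and 0 lower of 22 (13.6% called, near the 14.9% over all genes), the synthases ACS6 and ACS7 (1.27) and the factor ORA59 (0.83), and 2 were lower without flg22 3. ACS6 went from 19.2, 14.9 and 12.5 CPM to 40.9, 33.9 and 37.9 CPM (1.27). Of 27 jasmonate genes 5 were higher and 3 lower (29.6% called). The higher count was 1 without both libraries numbered 2 and 2 without 2-AA 2. It was 3 without 2-AA 1, 2-AA 3, flg22 2 or flg22 3. LOX2, an early enzyme of jasmonate synthesis, read 102, 83.6 and 134 CPM against 55.4, 44.7 and 72.8 CPM (-0.88). It was not called with robust dispersions (adjusted p = 0.108). PDF1.2, a defensin induced by jasmonate and ethylene, read 2.115, 4.88 and 4.46 CPM against 1.88, 1.23 and 1.74 CPM. It was called (-1.23, adjusted p = 0.0289), but not without flg22 2, flg22 3 or any 2-AA library (adjusted p 0.104, 0.0846, 0.06502, 0.0938 and 0.0597). Its call was also lost without both libraries numbered 2 (adjusted p = 0.227), with all 9 libraries fitted (0.117) and with limma-voom (0.0705). Auxin genes had 2 higher and 3 lower of 20 (25.0% called). There was 1 higher without 2-AA 2 or flg22 1, and 1 lower without 2-AA 1 or flg22 2. GH3.3, which conjugates auxin to amino acids, went from 9.39, 11.7 and 13.5 CPM to 43.3, 31.9 and 45.97 CPM (1.81, adjusted p = 4.06e-05). Hypoxia genes had 5 higher of 15 (33.3% called), and 2 without 2-AA 1 or flg22 1. PDC1, pyruvate decarboxylase, read 8.23, 2.37 and 12.3 CPM against 29.7, 22.3 and 18.3 CPM (1.62, adjusted p = 0.0211). PDC1 was not called without 2-AA 1 or flg22 1 (adjusted p 0.0907 and 0.0511). It was also not called with DESeq2 (adjusted p = 0.073) or with robust dispersions (0.193).

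Clock genes differed little between the treatments: 2 of 20 were higher and 1 was lower, a share close to the 14.9% called over all genes. TOC1, the evening repressor, read 229, 247 and 225 CPM and 249.6, 240.4 and 228 CPM, against 30.4 CPM in mock (0.04, adjusted p = 0.778). The morning genes CCA1 and LHY were low in both treatments, while their mock means were 144 and 225 CPM. LHY read 6.97, 2.95 and 8.27 CPM with flg22 and 1.78, 1.53 and 5.51 CPM with 2-AA (-1.03 ± 0.47, adjusted p = 0.187). The groups overlapped through 2-AA 3, and without it LHY (-1.87, adjusted p = 0.0142) and CCA1 (-1.51, adjusted p = 0.0116) were called. PRR7, an afternoon repressor, was called only without flg22 3 (adjusted p = 0.0233) among the tests that left out a library. With the replicate number as a block, LHY was called too (-1.14, adjusted p = 0.02101). BOA, an activator of CCA1, rose from 20.8, 25.02 and 22.9 CPM to 39.01, 41.2 and 42.1 CPM (0.83), with mock at 1.87 CPM. ELF4 (0.26) and CHE (-0.49) were the other called members. ELF4 was not called without 2-AA 1, 2-AA 2, flg22 1 or flg22 3 (adjusted p 0.181, 0.163, 0.145 and 0.115). Its call was also lost with RLE scaling (adjusted p = 0.0536), upper-quartile scaling (0.0776) or all 9 libraries fitted (0.106). CHE was not called without 2-AA 2, 2-AA 3, flg22 1 or flg22 2 (adjusted p 0.0643, 0.0501, 0.0677 and 0.0755). Without both libraries numbered 2, neither ELF4 nor CHE was called (adjusted p 0.1097 and 0.1503). Mock stood apart from both treatments in TOC1, CCA1 and LHY, and the part of clock phase in any placement beside mock was not tested.

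The photosynthesis genes that were called differed by small amounts. Of 40 genes of photosystems, antenna and Rubisco 6 were lower and 1 was higher, none of these by 2-fold. The share called was 17.5%, near the 14.9% over all genes. The lowest log2 fold change in the list, -1.01, belonged to a gene that was not called. The lower count was 10 with upper-quartile scaling or without flg22 3, and 3 without 2-AA 1. The small Rubisco subunits RBCS2B (-0.59) and RBCS3B (-0.49) are close copies; RBCS3B read 7685, 7792 and 7310 CPM against 5457, 5318 and 5442 CPM, with mock at 5714 CPM. Rubisco activase RCA (-0.34), the thiazole synthase THI1 (-0.65) and carbonic anhydrase CA1 (-0.49) were the other large falls in CPM. The antenna protein LHCB4.2 was at -0.06 (adjusted p = 0.832). Chlorophyll synthesis had 4 lower of 15 (26.7% called), and 2 without flg22 1 or 1 without any other single library except 2-AA 3. Of 15 ribosome biogenesis genes 1 was lower and 0 higher, below the share over all genes. The lower one was FIB1, a fibrillarin (-0.25), which was not called without 2-AA 1, 2-AA 2 or any flg22 library (adjusted p 0.0772, 0.131, 0.104, 0.0506 and 0.1004). The call of FIB1 was also lost without both libraries numbered 2 (adjusted p = 0.0995).

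Expansins and xyloglucan enzymes, which loosen walls, had 7 lower and 2 higher of 26 (34.6% called), and 4 lower without both libraries numbered 2. EXPA8 fell from 4.69, 5.57 and 5.41 CPM to 1.42, 1.34 and 2.03 CPM (-1.70, adjusted p = 0.000504), and EXPA7, of root hairs, was higher (1.06). Aquaporins had 6 lower and 3 higher of 29 (31.0% called), none by 2-fold. The higher count was 0 without 2-AA 1 or 2-AA 2 and 1 without flg22 1. Small auxin-up RNA genes had 3 higher and 5 lower of 53, and their share called, 15.1%, was close to the 14.9% over all genes.

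Markers of organs bear on every whole-seedling value. Root and root hair markers had 4 higher and 1 lower of 22 (22.7% called, beside 14.9% over all genes). Their summed level was 195 to 235 CPM with flg22 and 208 to 220.3 CPM with 2-AA. Guard cell and stomatal markers had 2 lower of 11, with sums of 111 to 116 CPM and 99.1 to 109.9 CPM, and cell division genes had 2 lower of 17, with sums of 252 to 315 CPM and 216 to 269.5 CPM. Both counts were near the 14.9% called over all genes. Without both libraries numbered 2, 0 guard cell and 0 cell division genes were lower. Leaving out 2-AA 2, 2-AA 3, flg22 1 or flg22 3 left 1 guard cell gene lower, and cell division had 1 lower without 2-AA 1 or flg22 1 and 0 without 2-AA 2, flg22 2 or flg22 3. The higher root markers numbered 2 without flg22 1 or flg22 2. No root or guard cell marker had 0 counts throughout. For comparison, the summed detoxification list stood at 3277 to 3783 CPM with flg22, 7901 to 8791 CPM with 2-AA and 2515 to 2626 CPM in mock. The part of organ proportions in the results was not tested. Of 8 common reference genes, GAPC1 (0.90) and UBC9 (0.31) were higher with 2-AA (25.0% called, beside 14.9% over all genes). UBC9 was not called without 2-AA 2 (adjusted p = 0.0546) or without both libraries numbered 2 (0.07515). GAPC1 read 541, 465 and 553 CPM against 902, 972 and 1030 CPM.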

How the data were processed

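Per the labels, a TruSeq kit was used on total RNA of whole seedlings. What the authors deposited is a table of whole-number read counts for each locus. Per the submitters' processing notes, Trimmomatic 0.36, HISAT2 and edgeR were used with TAIR10. The counter, its annotation and its use of strand were not found in the labels, so values of antisense, overlapping and near-identical genes are uncertain.

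The 6 treated libraries were fitted with edgeR 4.0.16 (R 4.3.3): filterByExpr defaults (minimum count 10, minimum total 15), TMM, glmQLFit and glmQLFTest, with Benjamini-Hochberg adjustment over 20588 genes and calls under 0.05. Dispersion was moderate (biological coefficient of variation 0.122) and 4 degrees of freedom remained. Mock values were scaled alongside. Alternatives used edgeR, DESeq2 1.42.0 and limma 3.58.1. The script was tested on simulated data.

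Libraries of the same group differed beyond sampling noise (chi-square over its degrees of freedom 8.85 to 31.8). Limits of 3 counts cover counting error only.

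Of the loci, 32548 matched the TAIR10.1 table by code; list entries were kept where that table gave the listed name, which kept 665 and dropped 51. The members and lists were chosen with earlier results of these data known. Genes are named by a rule: the 12 largest rises and falls among called genes with at least 5 CPM, a log2 fold change of at least 1 and no overlap between groups, the 5 largest rises and falls in CPM, called genes of smallest p in each list or family, and a set of standard markers. Further list members and the printed promoters were chosen after their values were seen, and the ERSE and AC spellings were corrected after a first count.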

Additional observations from a re-analysis of the deposited data

How the results depend on the processing

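Calls numbered 3039 with RLE scaling, 3192 with upper-quartile scaling (43.4% of them higher, against 52.7%), 3209 with no filter, 3381 with DESeq2, 3042 with limma-voom, 3156 with robust dispersions and 3317 with all 9 libraries fitted, beside 3062. Testing against a fold of 1.5 left 481 (298 higher, 183 lower), by the construction of that test. Leaving out both libraries numbered 2 left 1777 (990 higher, 787 lower), of which 1688 were among the 3062. Leaving out single libraries gave 1885 to 2741 calls, 1093 to 1481 higher and 792 to 1260 lower. Fewer libraries lower the count by construction; any other cause was not tested. No gene called in both the 6-library test and one of these alternatives changed direction.

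With the replicate number as a block, 3266 genes were called, 1686 higher and 1580 lower. The labels do not say what a shared replicate number means, so the numbers were not taken as pairs in the main test. Deviations of same-numbered libraries correlated with r = 0.0175, 0.204 and 0.0796. Of the flg22 libraries, flg22 2 correlated best with its own number, and flg22 1 and 3 did not. A shared origin of the libraries numbered 2 was not tested. Under the block FRK1 (0.58, adjusted p = 0.0358), PHI-1 and LHY were called, and IRT1 (0.0536) and LAC17 (0.0505) were not.

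Of 265 genes recomputed, 239 were called; 187 were called under each alternative other than the fold of 1.5, and 115 under that too. Depth limits genes near 0.115 CPM.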
